A study of Schizosaccharomyces pombe with 87 samples.

Results

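Introns of protein-coding genes in fission yeast, Schizosaccharomyces pombe, are described here from the genome annotation that the authors deposited with a ChIP-seq study of heterochromatin. Members were the intron records on chromosomes I, II and III whose parent transcript is a messenger RNA. There were 5240 of them among the 5332 intron records and 58359 records of all kinds, and they belonged to 5121 mRNAs of 5113 genes. Counted at distinct positions there were 5212. With 1 mRNA per gene, the longest, there were 5210, and these are the introns described below.

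The study sequenced DNA bound by histone H3 dimethylated or trimethylated at lysine 9, the marks of heterochromatin, beside input DNA. Its 87 libraries are 48 immunoprecipitates and 39 inputs, 56 labelled ectopic and 31 labelled endogenous, from yeast growing in log phase in YEA medium. The 7 genotypes are wild type, swi6-delta, swi6-delta mst2-delta, swi6-delta set1-delta, swi6-delta mst2-delta set1-delta, mst2-delta set1-delta and clr4-delta, and the endogenous set lacks the last pair. The protein Swi6 belongs to the HP1 family, readers of the mark that Clr4 writes, while Mst2 acetylates histones and Set1 methylates lysine 4 of H3. The 2 deposited files hold no value of any library, so no group was compared, every number below is a count or a length read from an annotation, and none has a replicate error or a test.

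Introns are cut out of the transcript by the spliceosome, which recognises a 5′ splice site at the intron's start, a branch point near its end and a 3′ splice site at its last bases. An adenosine of the branch point attacks the 5′ splice site and forms a lariat, after which the exons are joined. Fission yeast introns are short, and the spliceosome is thought to pair the splice sites across the intron rather than across the exon. Splicing factors also take part in heterochromatin formation in this yeast, where they act with the RNA interference machinery.

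The letters that the spliceosome reads are shown first. Sequences were read from RefSeq ASM294v3 at its own coordinates, for the 5206 introns that matched it by gene, order and length. Each is written 5′ to 3′ on the transcript's strand, as the first 10 and the last 30 bases. Capitals mark the first 6 bases, the final pair of bases and, where one was found, the last branch motif, which is CTAAC or its variant with G in the middle (CTGAC), with T at the end (CTAAT) or with both changes (CTGAT). The first set comes from nda3, the beta-tubulin gene, whose 5 introns carry all but CTGAT of these motifs. They lie at chrII:3965877-3965912, minus strand, and at chrII:3965776-3965826, chrII:3965693-3965733, chrII:3965549-3965637 and chrII:3964578-3964662, also on the minus strand. All 5 are coding introns, of 36, 51, 41, 89 and 85 bp.
nda3 intron 1, start: GTACGAgcta
nda3 intron 1, end: gctattttaatattcaaagCTAATcaatAG
nda3 intron 2, start: GTAAGCaaaa
nda3 intron 2, end: ataacgtttctctcaaCTAACgcttggaAG
nda3 intron 3, start: GTAGGTctat
nda3 intron 3, end: ttgcttgtttttttaCTGACttttacgtAG
nda3 intron 4, start: GTAGGTtttt
nda3 intron 4, end: tttttgtttatttagtaCTGACgactgtAG
nda3 intron 5, start: GTATGTttac
nda3 intron 5, end: gtttatgctcatctgCTAACctcgaaatAG

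The next set holds both introns of mst2, the one gene of the study's genotypes that has any. They are coding introns of 116 bp (chrI:2366265-2366380, minus strand) and 47 bp (chrI:2366128-2366174, minus strand). The longer one carries CTAAC close to its end, and none of the 4 motifs lies in the last 30 bases of the shorter one.
mst2 intron 1, start: GTAAACaact
mst2 intron 1, end: caaattgaatttacggaCTAACataatcAG
mst2 intron 2, start: GTAAGTaatt
mst2 intron 2, end: cattttatacttattgatgtttttccttAG

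The ends of the longest and the shortest introns follow. The longest was the only intron of atf1, the gene of a stress-activated transcription factor, at 855 bp in the 5′UTR (chrII:1546465-1547319, plus strand). It was followed by the first intron of elo1, a fatty acid elongase gene, at 837 bp (chrI:252753-253589, minus strand), the third of gnd1, for 6-phosphogluconate dehydrogenase, at 817 bp (chrII:230680-231496, plus strand), the only one of cit1, for citrate synthase, at 784 bp (chrI:2327863-2328646, plus strand), and the second of prr1, a transcription factor gene, at 756 bp (chrI:3666224-3666979, plus strand). A branch motif lay in the last 30 bases of all 5.
atf1 intron 1, end: tgtacagacatctaaCTAATtctcgtctAG
elo1 intron 1, end: ttcatgttgatttttaCTAACaatttttAG
gnd1 intron 3, end: tcgaatgtgaatatgCTAACatcattgtAG
cit1 intron 1, end: tttactttttaCTAACttttaaattattAG
prr1 intron 2, end: tgagtttatcaCTAACttactgctttttAG

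The 5 shortest introns of at least 20 bp are nearly whole in their last 30 bases. They measured 30 bp in SPAC24B11.14 (chrI:230800-230829, plus strand), 31 bp in gpi18, a gene of GPI anchor synthesis (chrI:309720-309750, minus strand), 32 bp in vma11, for a subunit of the vacuolar proton pump (chrI:2057696-2057727, plus strand), 33 bp in SPAC26A3.14c (chrI:3367021-3367053, minus strand) and 34 bp in nup131, for a nucleoporin (chrII:975138-975171, minus strand). Of these, the introns of SPAC26A3.14c and nup131 hold one of the motifs.
SPAC24B11.14 intron 2, end: gtagttaacaaacatactctaaacttatAG
gpi18 intron 2, end: tatataagacctgttttaacaaaatactAG
vma11 intron 2, end: atggacgattgaattatgattaatagctAG
SPAC26A3.14c intron 1, end: tgttttagcatcaaataataCTAATagtAG
nup131 intron 1, end: gttgttaattctttcgtatCTAACatatAG

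Slightly under 1 gene in 2 carried an intron. Of the 5113 genes, 2458 (48.1%) had at least 1 and 2655 (51.9%) had none. A single intron was found in 1112 genes, 2 in 653, 3 in 355, 4 in 168 and 5 in 80. The mean was 1.02 per gene and 2.12 per gene with introns. The 170 genes with 5 or more introns, 3.33% of all genes, held 1055 introns, or 20.2% of them, and 10 genes had 10 or more. The intron bases came to 433273, which is 4.18% of the transcribed span of the protein-coding genes. The share without introns was 52.9% on chromosome I, 50.3% on II and 52.6% on III.

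**Figure D1:**
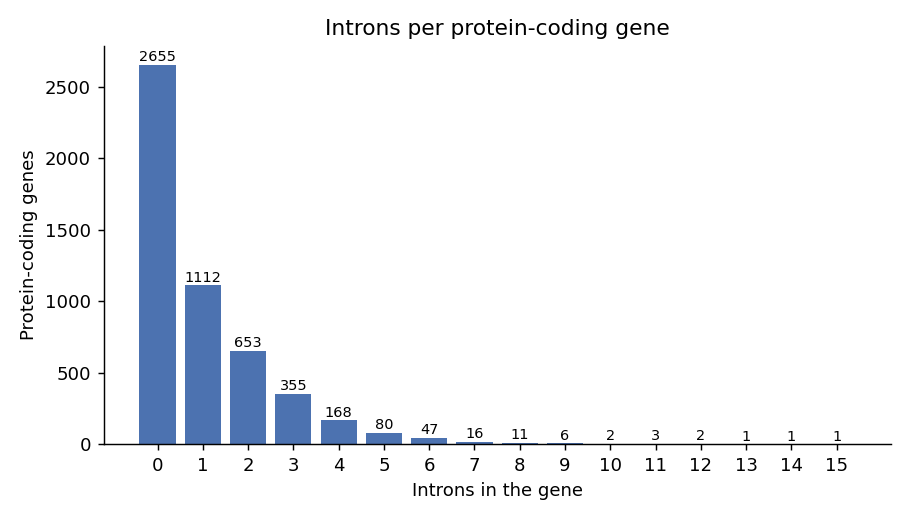
Number of protein-coding genes (vertical axis) with each number of introns (horizontal axis), 1 mRNA per gene, with the count above each bar. The bars fall at every step from 2655 genes with none to 2 genes with 10, and 1 gene reaches 15.

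The number of introns hardly varied with the length of the protein. With genes ranked by coding length and split into 5 groups of equal size, introns per gene lay between 0.976 and 1.06 in every group. The density therefore fell from 2.52 introns per kb of coding length in the shortest group to 0.322 in the longest. The share of intronless genes rose over the same groups from 46.3% to 58.1%. The longest coding sequence without an intron was that of mdn1, for the giant ATPase of ribosome assembly, at 14154 bp, followed by dhc1, the dynein heavy chain gene, at 12591 bp. Among genes with 3 or more coding introns the densest were small ones, led by tom7, for a subunit of the mitochondrial import pore, with 3 coding introns in 159 coding bp (18.9 per kb), and qcr10, for a subunit of respiratory complex III, with 4 in 240 bp (16.7 per kb). The tetarr6 annotation, the second deposited file, gave 1 intron to tom7 and 4 to qcr10.

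The most introns were in trt1, the gene of the telomerase catalytic subunit, which had 15 of 36 to 71 bp (median 41 bp). Next came rdh54, for a recombination ATPase, with 14 of 35 to 91 bp. Then followed clr6, which codes for a class I histone deacetylase, with 13 of 40 to 90 bp in only 1218 coding bp, or 10.7 per kb. Last of these 5 were trk2, a potassium transporter gene, with 12 of 35 to 210 bp, and gem1, for a mitochondrial GTPase, with 12 of 43 to 62 bp. Every intron of these 5 genes was coding. Genes with 5 or more introns had shorter introns than genes with 1, with medians of 48 and 66.5 bp.

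Intron lengths were tightly bunched with a long upper tail. The median was 56 bp, the quartiles were 46 and 86 bp, and the commonest length was 46 bp, with 172 introns. Lengths of 40 to 59 bp took 50.1% of all introns. At least 100 bp were reached by 1079 introns (20.7%), 200 bp by 342 (6.56%) and 400 bp by 55 (1.06%). No intron had a length of 12 to 29 bp. Below that gap lay 21 introns of 1, 2 or 11 bp, all within coding sequence, in 19 genes. They are counted as members because the annotation lists them, but they are too short to hold the splicing signals, and 13 genes have only such records. Of the 21, 13 span a single base and 7 a pair of bases. The Tf2-10 and Tf2-13 retrotransposons each have one of 2 bp, and the one of 11 bp is in SPBPB21E7.02c.

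Length varied with order and place. The median was 66.5 bp for the intron of single-intron genes (n = 1112), 54 bp for first introns (n = 1346), 51.5 bp for inner ones (n = 1406) and 56 bp for last ones (n = 1346). Among genes with 2 or more introns the first was longer than the last in 613 (45.5%) and shorter in 710 (52.7%), with a median difference within genes of -2 bp. The 95th percentiles of first and last introns were close, at 216 and 210 bp, and that of single introns was 326 bp. Introns of the 5′UTR were the longest class, with a median of 76 bp and a 95th percentile of 441 bp (n = 105), against 55 bp and 220 bp in coding sequence (n = 5050) and 56 bp and 175 bp in the 3′UTR (n = 55). That ranking depends on which 5′UTR introns are annotated. The tetarr6 annotation has 69 without a match of equal length here, and their median was 53 bp.

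**Figure D2:**
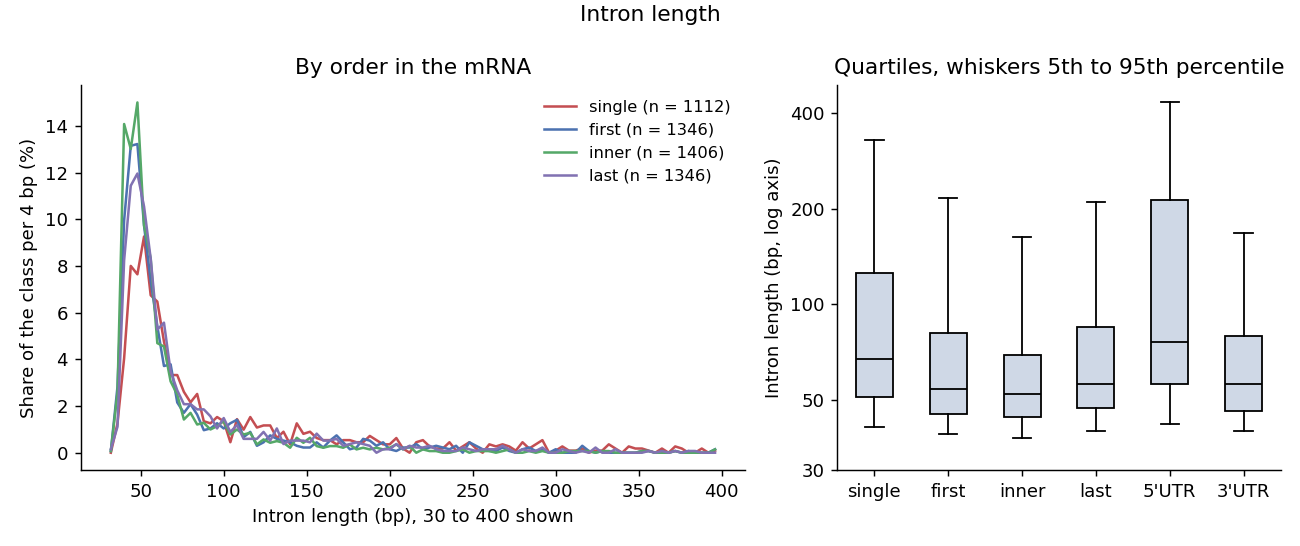
Left, share of each order class (vertical axis, %) per 4 bp of intron length (horizontal axis, 30 to 400 bp shown). Right, length on a log axis for introns of at least 20 bp by order and for both UTRs, with boxes from the lower to the upper quartile, a line at the median and whiskers from the 5th to the 95th percentile. All classes peak between 40 and 60 bp, and single and 5′UTR introns reach highest.

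Introns crowded towards the start of the transcript. By place, 5050 (96.9%) lay between coding parts, 105 (2.02%) in the 5′UTR of 102 genes and 55 (1.06%) in the 3′UTR of 53 genes, and no gene had them in both UTRs. In 59 genes every intron was in the 5′UTR, and in 19 every one was in the 3′UTR. The median intron lay 22.9% of the way along the spliced transcript. The first 10% of the transcript held 23.6% of introns and the last 10% held 1.75%. Single introns lay further forward, at a median of 15.6%, with 33.5% of them in the first 10%. Within the coding sequence alone the median was 25.1%, and 3473 of 5050 coding introns (68.8%) fell before its midpoint.

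**Figure D3:**
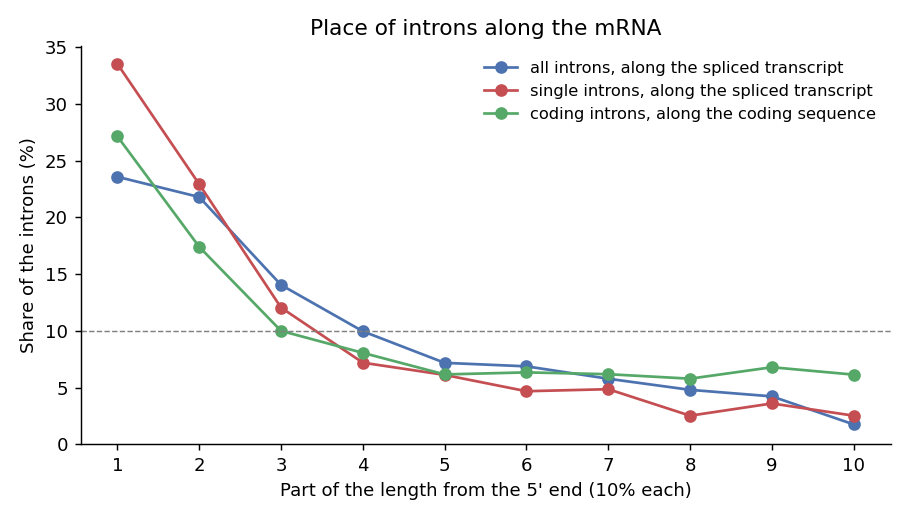
Share of introns (vertical axis, %) in each 10% of the length from the 5′ end (horizontal axis), for all introns and single introns along the spliced transcript and for coding introns along the coding sequence. The dashed line marks an even 10%. All 3 lines are highest in the first 10% and lie under the dashed line past 30%.

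The first coding intron followed a median of 108 coding bases, and in 353 of 2380 genes (14.8%) it fell within the first 30. In 42 genes it came directly after the start codon. Examples were cam1, the calmodulin gene, with 126 bp, paf1, for a subunit of an RNA polymerase II elongation complex, with 37 bp, and smb1, for a core spliceosomal Sm protein, with 65 bp. In 4 genes the intron split the start codon itself: trr1, for thioredoxin reductase, after 1 base (299 bp), and cit1 (784 bp), exo70, for an exocyst subunit (50 bp), and mpc1, for the mitochondrial pyruvate carrier (40 bp), after 2 bases. Exons between introns were short too, with a median of 138 bp over 2752. Of these, 33 measured 15 bp or less and the shortest had 3 bp.

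Of the 3 positions relative to the codons, the one between codons was the commonest. Among 5029 coding introns of at least 20 bp, 41.6% were in phase 0 (between codons), 32.6% in phase 1 (after a codon's first base) and 25.9% in phase 2. Their lengths took the 3 remainders on division by 3 almost evenly, at 32.3%, 34.1% and 33.6%. A retained intron would bring an in-frame stop codon in 4334 of the 5027 with sequence (86.2%). That share was 90.3% where the length is a multiple of 3, against 83.4% and 85.2% at remainders 1 and 2. The final TAG that 68.6% of introns carry is itself a stop codon. It is in frame where phase and length add up to a multiple of 3. These shares can therefore count the 3′ splice site, and shares without it were not computed. There were 158 introns, 3.14%, whose length is a multiple of 3 and which hold no in-frame stop, with a median of 48 bp.

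The ends were nearly uniform. Of 5187 sequenced introns of at least 20 bp, 5177 (99.8%) began with GT and ended with AG. The first 6 bases were GTAAGT in 27.7%, GTATGT in 19.8%, GTAAGA in 6.56% and GTACGT in 5.21%, and there were 113 kinds. The last 3 were TAG in 68.6%, CAG in 18.8%, AAG in 12.4% and GAG in 7 introns. Introns that open with GTAAGT had a median of 63 bp, and those that open with GTTTGT, 1.58% of the total, a median of 46 bp.

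The 10 exceptions are shown next, since they are the introns that depart from the standard ends. Those with GC and AG ends, 7 in number, are in ckb1, for the regulatory subunit of casein kinase 2 (chrI:4504192-4504252, plus strand), alp21, for a tubulin folding cofactor (chrI:2390690-2390735, plus strand), sce3, an RNA-binding protein gene (chrII:1776857-1776893, minus strand), vhc1 (chrII:1798755-1798800, plus strand), mnh1, the Mago nashi homologue (chrII:4002182-4002223, minus strand), pla1, for poly(A) polymerase (chrII:930445-930487, plus strand), and mis18, for a centromere protein (chrIII:514093-514166, minus strand). Their first 6 bases were GCAAGT in ckb1, sce3 and mnh1, GCATGT in alp21, vhc1 and mis18, and GCAAGA in pla1. The remaining ones are in cox7 (chrII:1715443-1715482, minus strand), SPBC3D6.16 (chrII:1296964-1297021, plus strand) and asn1, for asparagine synthetase (chrII:735289-735402, plus strand).
ckb1 intron 3, start: GCAAGTgccc
ckb1 intron 3, end: agcttgctcacgtttatCTAACagtaatAG
alp21 intron 3, start: GCATGTgttt
alp21 intron 3, end: atctctacacgtatattCTAACtctttcAG
sce3 intron 1, start: GCAAGTtgtg
sce3 intron 1, end: gtgtttttgatcatgagttattaataatAG
vhc1 intron 1, start: GCATGTatac
vhc1 intron 1, end: tttttgacaataCTAACccataaattatAG
mnh1 intron 5, start: GCAAGTcatt
mnh1 intron 5, end: tttcaattttttataCTAACtactatttAG
pla1 intron 1, start: GCAAGAtact
pla1 intron 1, end: ttttgaaattaattatgCTAACtttattAG
mis18 intron 5, start: GCATGTacag
mis18 intron 5, end: agaagaataaattaCTAATtttatttgtAG
cox7 intron 1, start: TTCGTTttat
cox7 intron 1, end: aattattaaaacaattattaattaaaaaAG
SPBC3D6.16 intron 1, start: GTAATTaaaa
SPBC3D6.16 intron 1, end: gtcctccaataaaCTAATaaggaggacaAA
asn1 intron 1, start: GTAACTatca
asn1 intron 1, end: ataaattttagatctatttgtcaattttTT

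The intron of asn1 ends in TT in the all-chromosomes annotation, where it has 114 bp. In the tetarr6 annotation it starts at the same base and has 95 bp. Shortened by those 19 bases at its 3′ end, the same RefSeq sequence ends in AG, as shown here with the last pair of bases in capitals.
asn1 intron 1, end in the tetarr6 annotation: tattctttgtttagtaaccataaattttAG

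A branch motif was common near the intron end and rare elsewhere. The 4 motifs exclude each other at the same start and were searched on both strands. At least 1 lay on the transcript's strand in the last 50 bases, or the whole of a shorter intron, in 3908 of 5187 introns (75.3%), and 18.6% held one on the other strand. The other strand is not a neutral background there, because an intron that ends in ATTAG reads CTAAT on it. CTAAT alone was on the other strand in 10.95%. As a background of equal length, the share among 1079 introns of at least 100 bp was 83.2% in the last 50 bases and 7.88% in the first 50. It was 12.4% in the first 50 exon bases after coding introns and 13.0% in the last 50 exon bases before them. The last motif was CTAAC in 56.6% of the 3908, CTAAT in 33.1%, CTGAC in 7.42% and CTGAT in 2.94%. A match is a run of letters and not a mapped branch point, and the absence of one says only that these letters are not in that window.

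The distance from the motif to the end was narrow. Counted as the bases after the last A of the motif, the branch adenosine, it had a median of 11 and quartiles of 9 and 13, and it was 8 to 20 in 3522 introns (90.1%). The median was 10 in introns of 30 to 49 bp, 12 in those of 50 to 79 bp and 11 in those of 200 bp and more, so it barely moved with intron length.

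**Figure D4:**
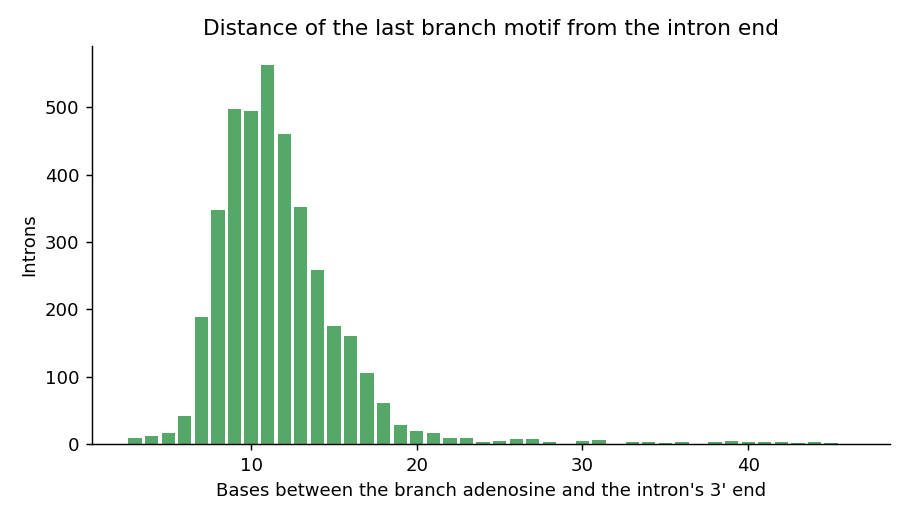
Number of introns (vertical axis) by the number of bases between the last A of the last branch motif and the intron's 3′ end (horizontal axis), for the 3908 introns with a motif in the last 50 bases. The counts peak at 11 bases, with 563 introns, and few lie past 20.

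Introns were poorer in G and C than the exons beside them. Leaving out the first 6 and the last 3 bases, they held 28.7% GC over 386457 bases, against 38.6% in the 50 coding bases before and 38.7% in the 50 exon bases after. The difference lay mostly in T, which made up 40.4% of intron bases and 29.8% and 30.7% of the flanking ones. GC rose with length, from 25.4% in introns of 30 to 49 bp to 31.5% in those of 200 bp and more.

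Few introns held other genes. Of the 5210, 15 enclosed a gene entirely. The enclosed genes on the strand of the host were 12 snoRNA genes and snR48 in rps3, which is annotated as an snRNA. The other 2 were lncRNA genes on the opposite strand. The 12 are part of 66 annotated snoRNA genes. SnoRNAs guide the modification of ribosomal RNA, and intronic ones are released from the spliced lariat. The longest such introns were the second of dph7, for an enzyme of diphthamide synthesis, with 484 bp around an antisense lncRNA gene of 248 bp, and the first of ipa1, with 481 bp around a snoRNA gene of 100 bp. They were followed by rpl701, for a large-subunit ribosomal protein, with 441 bp around snoR39b, nog2, for a GTPase of ribosome assembly, with 404 bp around snR191, and ade4, for the first enzyme of purine synthesis, whose 5′UTR intron of 375 bp holds snoR58. A 3′UTR held 4 of the 15, those of pfd1, spt20, ero11 and fta3.

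Antisense lncRNA genes covered introns somewhat less than coding sequence. They lay over 42.7% of intron bases, 47.8% of the coding bases of genes with introns and 49.9% of those of intronless genes. The share was 34.2% for 5′UTR introns and 18.7% for 3′UTR introns. A lncRNA gene on the opposite strand covered 2109 introns (40.5%) from end to end, and one on the same strand covered 4.

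The gene lists differed widely in how many of their members had introns, and they are given by counts beside all genes, of which 51.9% lacked introns at 1.02 introns per gene. Of the 4 genes deleted in the study's strains, swi6, clr4 and set1 had none and mst2 had its pair. Among 19 heterochromatin genes, 13 (68.4%) had none, among them chp1, for a chromodomain protein, dcr1, for Dicer, clr3, for a histone deacetylase, and epe1, for an antagonist of heterochromatin. Those with introns included ers1, an RNA interference factor gene, with 10 introns of 36 to 55 bp, sir2, for a histone deacetylase, with 5 of 41 to 163 bp, and hrr1, for an RNA helicase, with 3 of 41 to 48 bp. Argonaute, ago1, had 1 coding intron of 371 bp, the HP1 protein gene chp2 had 1 of 37 bp, and rdp1, for the RNA-dependent RNA polymerase, had 1 of 80 bp in its 5′UTR.

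The splicing factor genes carried introns themselves in 23 of 35 cases, with 34.3% intronless and 1.57 introns per gene. The core Sm protein genes smb1, smd1, smd2, smd3, sme1, smf1 and smg1 all had 1 to 3. The SR protein gene srp2 had 9, of 40 to 190 bp, and cdc5, for a component of the Prp19 complex, had 5 of 40 to 69 bp. The longest was the 485 bp second intron of prp19, for a ubiquitin ligase of the spliceosome. In contrast, prp1, prp2, prp5, prp16, prp31, prp43, uaf2, usp101, spp42, cdc28, cwf11 and sap145 had none. An intron in the first 30 coding bases was present in 9 of the 35 genes, against 353 of all 5113.

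Of 5 genes listed for splicing regulated in meiosis, 4 had introns. The exception was mei4, for a meiotic transcription factor, whose lack of an intron in this annotation goes against the list's name. The cyclin genes crs1 and rem1 had 4 introns of 40 to 52 bp and 1 of 85 bp, the meiotic regulator mes1 had 1 of 75 bp, and meu13, for a recombination factor, had 4 of 42 to 143 bp. The introns of mes1, rem1 and crs1 are shown because their splicing is known to depend on the stage of the life cycle. The intron of mes1 lies at chrI:1499359-1499433, plus strand, and that of rem1 at chrII:1954166-1954250, minus strand. Those of crs1 lie at chrII:3453078-3453118, minus strand, and at chrII:3452878-3452917, chrII:3452770-3452821 and chrII:3452541-3452588 on the same strand. None of the 6 shown begins with GTAAGT, which opens 27.7% of all sequenced introns of at least 20 bp. The second of crs1 begins with GTATGT, as do 19.8% of those. So few introns cannot be told apart from these shares, and the 4 introns of meu13 are not shown.
mes1 intron 1, start: GTTAGTgtat
mes1 intron 1, end: ttaaagtatttaCTAACattttatttacAG
rem1 intron 1, start: GTATGAaaaa
rem1 intron 1, end: aagaagtttttatttattaacattttttAG
crs1 intron 1, start: GTGCGTcagc
crs1 intron 1, end: ttgctatttttcgagattCTAACgaaacAG
crs1 intron 2, start: GTATGTtcgc
crs1 intron 2, end: gataaaaactgttattaatttcttttgtAG
crs1 intron 3, start: GTTTGTagtg
crs1 intron 3, end: ttgaaacatgtttctttaacaaattaatAG
crs1 intron 4, start: GTTAGTagat
crs1 intron 4, end: tattaatggatagcacgCTAATctgaacAG

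Of 9 genes of the cell cycle, 5 had no intron, among them wee1, the kinase gene, and rum1, for an inhibitor of the cyclin-dependent kinase. The kinase gene cdc2 had 5 introns, the first of 42 bp in the 5′UTR and the others coding, of 54 to 101 bp. The cyclin gene cdc13 and the phosphatase gene cdc25 each had 1, of 353 and 100 bp, in the 5′UTR. Of the 9 introns in this short list, 3 were thus in the 5′UTR, against 105 of 5210 in all genes. The others were coding, among them the 2 of suc1, and so few introns give no firm share. In the cytoskeleton list 4 of 8 genes had none, including the actin gene act1, while nda3 had the 5 shown above.

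Several gene groups had no introns at all. All 12 genes of glycolysis and translation elongation lacked them, as did all 9 core histone genes and the subtelomeric helicase genes tlh1 and tlh2. Meiotically upregulated mug and meu genes were intronless in 69 of 111 cases (62.2%), with 0.784 introns per gene.

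**Figure D5:**
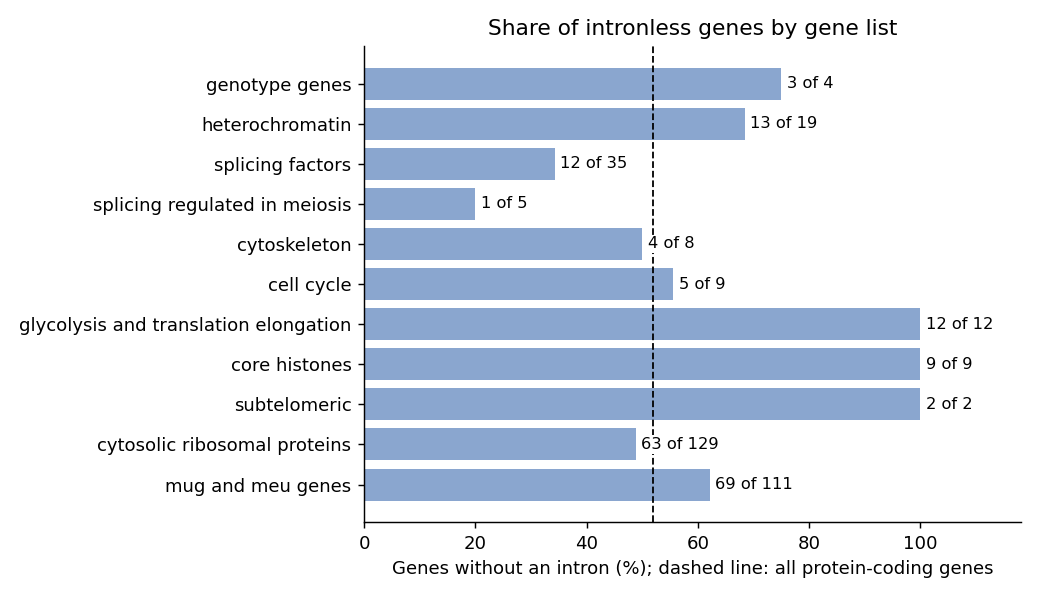
Share of genes without an intron (horizontal axis, %) in each gene list (vertical axis), with counts at the bars and a dashed line at 51.9%, the share over all 5113 protein-coding genes. Splicing factor and meiotic splicing genes lie under the line, and genes of glycolysis and elongation, core histones and subtelomeric genes reach 100%.

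Ribosomal protein genes mostly had a single intron or none. Of 129, 66 (51.2%) had introns, near the 48.1% of all genes (2458 of 5113). Exactly 1 was present in 57 of the 66, against 1112 of the 2458. The list held 0.589 introns per gene with a median of 73.5 bp, against 56 bp in all genes and 66.5 bp in all single-intron genes. The first coding intron fell within 30 coding bases in 18 of the 66 (27.3%), against 14.8% over all genes with coding introns. Introns were present in 35 of 74 large-subunit genes (47.3%) and 31 of 55 small-subunit genes (56.4%).

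Many ribosomal proteins are made from duplicate genes, whose symbols differ in the last digit. Of 50 such proteins, 47 have 2 copies and 3 have 3. Copies were matched by such symbols alone, so a copy whose partner is named otherwise is missed, and rps502 is in no pair. Among the 47 pairs, 20 had no intron in either copy, 21 had introns in both and 6 in only 1. In 18 of the 21, at least 1 intron lay after the same number of coding bases in both copies. Where each copy had exactly 1 intron and it lay at the same base, in 15 pairs, the lengths were equal in 1 pair, and the median difference was 28 bp. Of the proteins with 3 copies, rpl801, rpl802 and rpl803 had no intron, nor had rps401, rps402 and rps403. The copies rpl1601, rpl1602 and rpl1603 had 1 each. The gene with the plain symbol rpl8 is not among these copies and had an intron of 66 bp. The widest gap was between rps1701 and rps1702, with 278 and 64 bp, both directly after the start codon.

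The wtf genes, a family that includes meiotic drivers which make a poison and an antidote from overlapping transcripts, were all split. This family and the next were picked after their values were seen, as the only symbol families of at least 10 genes with no intronless member. The 17 wtf genes, 16 of them on chromosome III, held 74 introns, or 4.35 per gene, with 4 introns in 8 genes, 5 in 8 and 2 in wtf7. The first intron was long, with a median of 169 bp and at least 100 bp in 16 of 17, the exception being the 71 bp of wtf14. None of the 57 later introns reached 100 bp. The first one came after 130 to 157 coding bases in all 17. The other family, the rpb genes for subunits of RNA polymerase II, had 26 introns in 11 genes, from 1 in rpb2, rpb6 and rpb7 to 6 in rpb1.

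A pair of mRNAs was annotated for each of 8 genes, and the introns differed within the pair in 6 of them. In wtf4, wtf13, wtf19 and wtf23 the longer mRNA had 5 introns and the shorter 4, and the 4 were identical. The extra one was the first, of 228, 231, 215 and 216 bp, and the 5′ end of the shorter mRNA lay inside it in all 4 genes. In zas1, a zinc finger gene, only the second intron, of 156 bp, differed between mRNAs of 9 and 8 introns. In crd1 the mRNAs had 6 and 4 introns and shared 3. The mRNAs of pgr1 shared their only intron, and those of mei3, the inducer of meiosis, had none.

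Genes near the heterochromatin domains are given beside all genes, of which 51.9% had no intron at 1.02 introns per gene. No mRNA intron lay inside the 3 annotated centromeres. How many protein-coding genes lie there is not given, so this absence says nothing about the intron content of such genes. Of the 62 genes within 50 kb of the ends of chromosomes I and II, 45 (72.6%) had none, with 0.387 introns per gene. Within 100 kb it was 102 of 124 (82.3%). At the ends of chromosome III it was 17 of 22 (77.3%) within 50 kb and 39 of 65 within 100 kb. Within 50 kb of the centromeres 62 of 134 genes (46.3%) had none, with 1.19 introns per gene, and within 100 kb 135 of 262 (51.5%), close to the share of all genes. The shares were 61.2% of 49 genes around the mating-type interval and 66.7% of 45 genes around the ura4 locus, each within 50 kb, and 60.8% and 61.8% within 100 kb. In the coordinates of the all-chromosomes annotation these are the intervals chrII:2129021-2143660 and chrIII:115324-115770, each taken between its flanking genes. The nearest gene with an intron was rpp202, for a ribosomal stalk protein, 554 bp from the mating-type interval, with 1 of 46 bp. At the ura4 locus it was tam14, 68 bp away, with introns of 57 and 66 bp.

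The tetarr6 annotation held nearly the same introns, with a higher count in the 5′UTR. By gaps between the parts of each mRNA, coding sequence or UTR, it had 5297 introns in 5120 genes, with 51.1% of genes intronless and a median of 56 bp. Of the 5095 genes in both files, 4988 (97.9%) had the same number, 91 had more in the tetarr6 annotation and 16 had fewer. An intron of equal length was found in the same gene for 5007 of 5034 coding introns (99.5%), 101 of 105 in the 5′UTR and 54 of 54 in the 3′UTR. The coding introns compared include some under 20 bp. Of the 21 introns under 20 bp, 16 were compared, and one of equal length was found for 9 of the 16 (56.2%). The tetarr6 annotation had 173 introns in 5′UTRs. For 69 of these, with a median of 53 bp, the all-chromosomes annotation had no intron of equal length in the same gene. Of the 69, 67 were in genes with no 5′UTR intron in that annotation, and the shortened one of asn1 was among the other 2. The longest was that of plb5, with 334 bp. No intron of the same length was present for any of these in the RefSeq annotation of that gene. The largest change of number was in qtr2, with 1 intron against 6 in the tetarr6 annotation. Positions had shifted for 1962 of the 5053 introns (38.8%) that matched by order and length, all but 1 on chromosomes II and III, where 1071 were 6539 bp lower, 475 were 3041 bp higher and 415 were 1213 bp higher.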

How the data were processed

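The values used are other than measurements: the deposited annotations give the first and last base of each feature in bp, counted from 1, and nothing per library. Per the source fields, PomBase made the records of the all-chromosomes annotation. The tetarr6 annotation came out of Geneious 7.1.5, per the file headers. The submitters' processing notes name Trimmomatic and BWA, without versions, and neither a genome build nor a depth is given in the sources used here. The planned comparison of libraries had no values to run on.

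Introns were taken from intron records with an mRNA parent in the all-chromosomes annotation, and from gaps between the parts of each mRNA in the tetarr6 annotation and in RefSeq ASM294v3. In all 5121 mRNAs the intron records were the gaps between coding and UTR records. An mRNA part of the tetarr6 annotation can run across a UTR intron, so gaps between UTR records of 1 kind were added there. Systematic identifiers, compared without regard to case, joined the genes, and the longest mRNA was kept for each gene. Phase was computed from the coding bases before the intron, because the phase field is 0 in 17828 of 17829 coding records. Sequences were read from RefSeq at its own coordinates for introns matched by gene, order and length, and no position was converted. Their starts equalled those of RefSeq on chromosome I, and on parts of II and III differed by 6539 and -1807 bp. Letters and phase are given for introns of at least 20 bp. The intron finder was tested on simulated data. Python 3.11.15, numpy 2.4.6, scipy 1.17.1 and matplotlib 3.10.9 were used.

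The members and the gene lists were chosen with earlier results of these data known. Genes named for extremes are the 5 with the most introns, those of the 5 longest and 5 shortest introns (from 20 bp, beside the 21 shorter ones) and those of the 5 longest introns that hold another gene. Examples of introns after the start codon, the densest genes, the longest intronless genes and the intron-rich symbol families were chosen after their values were seen.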

Additional observations from a re-analysis of the deposited data

How the results depend on the processing

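The count of 5240 introns stayed within 1.5 times under 7 alternatives, from 5080 with coding introns only to 5299 in the tetarr6 annotation. Alternatives that drop a few members could not pass so wide a bound, and the count from gaps is the same set of introns. Of all genes, 51.9% were intronless, and the share moved beyond its 95% binomial interval to 53.5% with coding introns only and to 49.3% among genes with a symbol. Since the share is a full count of annotated genes, this interval served only as a bound and measures no sampling error. The median length of 56 bp became 66 bp when introns were averaged within a gene first. The median place at 22.9% of the transcript became 25.1% within the coding sequence and 15.6% in genes with 1 intron. GT and AG ends were present in 99.4% of all matched introns and in 99.8% of those of at least 20 bp, a bound that was added for this result after seeing the data. The branch motif share of 75.3% became 74.1% in the last 30 bases and 44.5% with CTAAC alone. The remaining alternatives gave values that had not moved by the bound used for each result. Among them were chromosome I alone, the tetarr6 annotation, RefSeq and leaving out genes near chromosome ends. No paired analysis was possible because neither annotation carries a value of any sample. An annotated intron is a model, and neither its use nor its frequency of splicing can be read from these files. The 2 files gave 105 and 173 introns in 5′UTRs, and 55 and 58 in 3′UTRs.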

Other observations

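Introns were also annotated in transcripts that are not mRNAs, 92 in all. Of 171 tRNA genes 44 (25.7%) had 1 each, with a median of 9.5 bp and a longest of 30 bp, and these are removed by a tRNA endonuclease and not by the spliceosome. Of 31 pseudogenic transcripts 14 had 41 introns, with a median of 48 bp. The U6 snRNA gene snu6, whose RNA is itself a part of the spliceosome, had an intron of 50 bp, near the median of the mRNA introns. The telomerase RNA gene ter1, whose RNA 3′ end is made by the spliceosome, had 1 of 56 bp. Its protein partner gene trt1 had the most introns of any protein-coding gene, 15. Among 66 snoRNA genes, snR90 had an intron of 186 bp and snoR61 one of 336 bp. Only 4 of 7158 lncRNA transcripts, 0.056%, had an intron record.

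Symbol families of at least 10 genes, listed after their values were seen, covered the whole range of intron content. Over all genes, 51.9% were intronless, at 1.02 introns per gene. The families named below were picked from towards the ends of the range. Other families, among them cut, meu and rpl, lay close to all genes in the share without introns. Beside the wtf and rpb genes, 1 of 11 ubc genes, for ubiquitin-conjugating enzymes, was intronless, at 2.64 introns per gene. Of the 14 vma genes, for the vacuolar proton pump, 2 were intronless, at 2.79 introns per gene, and of the 14 rpn genes, for the proteasome lid and base, also 2, at 1.36. At the other end all 11 hsp genes, for heat shock proteins, were intronless, as were 9 of 10 arg genes, for arginine synthesis, and 8 of 12 met genes, for methionine synthesis.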
